A study of Mus musculus with 16 samples.

Results

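The host locus of miR-212 and miR-132 on mouse chromosome 11 was listed as 3 genes, the long non-coding RNA 1700016P03Rik and the microRNA genes Mir212 and Mir132 inside it. These 3 were taken by name from 40481 listed genes, and all 3 were among the 14949 genes that passed the filter on low counts. They were chosen by their measured fold changes between adropin-treated and control mice, so their values in that comparison are a description and carry no test. RNA was sequenced after poly-A selection from the brains of 16 male C57BL mice (C57BL/6J in the study's methods) bought at 18 months of age. Of these, 8 received daily intraperitoneal adropin(34-76), the putative secreted domain of the peptide, at 90 nmol/kg/d in saline with bovine serum albumin, and 8 received the saline diluent alone. The sequenced mice were drawn from larger behavioral cohorts, and every mouse was aged, male and injected daily, so no young or uninjected animal serves as a reference.

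MicroRNAs are cut from hairpins in longer primary transcripts, first by Drosha with Dgcr8 in the nucleus and then by Dicer1 in the cytoplasm. One arm of the hairpin is loaded onto an Argonaute protein, which it guides to messenger RNAs through its seed, the bases near its 5′ end. This locus is known as a target of the transcription factor CREB in neurons, where synaptic activity and neurotrophins raise its primary transcript. Mature microRNAs carry no poly-A tail, so the libraries do not measure them. Reads counted for Mir212 and Mir132 came from poly-A selected RNA that spans the hairpins, and the level of the mature arms was not measured.

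On GRCm38, 1700016P03Rik lies on the plus strand at chr11:75172560-75177633 and spans 5074 bases with 3 exons of 38, 184 and 641 bases. Both hairpins lie in its first intron, which is 1380 bases long. Mir212 is at chr11:75173388-75173478 and Mir132 at chr11:75173682-75173747. In the hairpins, taken from RefSeq on GRCm38.p6 and shown because they are the stretches counted for the microRNA genes, capitals mark the mature arms.
Mir212: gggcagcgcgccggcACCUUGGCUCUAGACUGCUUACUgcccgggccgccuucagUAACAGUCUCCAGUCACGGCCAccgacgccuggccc
Mir132: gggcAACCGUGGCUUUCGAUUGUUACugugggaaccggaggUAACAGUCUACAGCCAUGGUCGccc

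The 4 mature arms are shown with the seed, bases 2 to 8, in capitals, because the seed decides which messenger RNAs an arm can pair with.
mmu-miR-212-3p: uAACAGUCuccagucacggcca
mmu-miR-132-3p: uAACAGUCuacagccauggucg
mmu-miR-212-5p: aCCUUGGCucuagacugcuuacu
mmu-miR-132-5p: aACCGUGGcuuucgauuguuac
The 3p arms share the seed AACAGUC and are identical at 17 of 22 positions, with their first 9 bases in common. The 5p arms match at 9 of the 22 positions compared and at 2 of 7 seed positions. A change in the level of either 3p arm would therefore bear on the same seed matches, whereas the 5p arms have separate ones.

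How reads were assigned sets what each of the 3 values stands for. The hairpins hold 0 bases of the exons of 1700016P03Rik. From the end of exon 1 to Mir212 there are 790 bases, between the hairpins 203, and from Mir132 to exon 2 there are 230, each longer than a read of 150 bases. A single unspliced read therefore cannot touch 2 of the 3 genes, although the mates of a pair can, and whether reads or pairs were counted is not given in the sources used here. Ovca2, a predicted serine hydrolase gene on the minus strand at chr11:75175942-75178835, covers all 641 bases of exon 3 with its own exon, which leaves 222 exon bases of 1700016P03Rik, in exons 1 and 2, that no Ovca2 exon shares. The start of these bases, which are the ones that can be counted for the host alone, is printed with exon 1 in capitals and followed by the first part of exon 2.
1700016P03Rik exons 1 and 2: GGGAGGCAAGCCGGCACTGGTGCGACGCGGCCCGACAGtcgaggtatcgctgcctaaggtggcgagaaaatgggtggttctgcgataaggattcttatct

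Whether the counting used strand is not stated, and the counts were examined for it. Where all exons of a gene lay inside exons of an expressed gene on the opposite strand, 73 of 87 such genes (83.9%) had no count in any mouse. On the same strand this was 192 of 223 (86.1%), against 8915 of 32129 (27.7%) for genes that share no exon base. In the share with no count, opposite-strand overlaps thus behaved like same-strand overlaps, as they do in counts made without strand. Reads in exon 3 would then have been left out as ambiguous. The sets of genes compared were not matched for length or gene type, so the check cannot settle whether strand was used. The annotation used for this check is GENCODE M21 on GRCm38, which is later than the Ensembl release used for the counts. The overlap also bears on Ovca2. Of its 2670 exon bases, 641 are shared with 1700016P03Rik and 969 with Dph1, a diphthamide synthesis gene. Of the 1060 bases left to Ovca2 alone, 1051 lie inside intron 2 of 1700016P03Rik on the opposite strand, so without strand its reads and unspliced host RNA cannot be told apart.

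**Figure D1:**
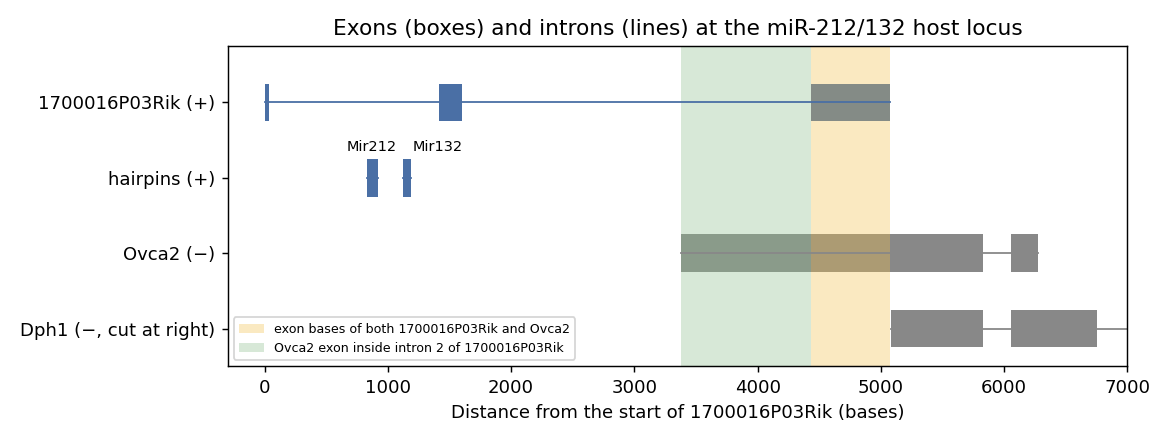
Exons (boxes) and introns (lines) of 1700016P03Rik, the hairpins, Ovca2 and Dph1, drawn to scale as distance in bases from the start of 1700016P03Rik, with genes of the plus strand in blue and of the minus strand in grey. Both hairpins sit in the first intron, the 641 bases of exon 3 are shared with Ovca2, and 1051 bases of the Ovca2 exon lie in the second intron.

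Total counts ran from 35026503 to 70314050 per mouse, with medians of 41190462 in adropin-treated and 41497897.5 in control mice. Levels are given in CPM, the counts per 1000000 counts of the library after scaling by TMM factors. Neuronal markers were abundant in every mouse, with a summed level for 3 genes from 4083 to 5642 CPM. Markers of brain regions varied between mice, and 1 control mouse, 8_3, held a summed 2470 CPM of 7 choroid plexus markers and 280 CPM of 4 cerebellar markers, where the adropin-treated mice reached at most 74.5 and 8.29. In that mouse the members stood inside the range of the other controls, and their fold changes without it are within the ranges given for leaving out each mouse. Dentate gyrus markers, 3 genes of a region that expresses activity-induced genes, summed to 16.5 to 48.6 CPM with adropin and 21.7 to 80.2 CPM in controls. Marker scores, averages of z scores compared as adropin minus saline, were 0.70 for microglia, 0.46 for endothelial cells, 0.42 for neurons, 0.25 for cortex, 0.15 for astrocytes and for striatum, -0.31 for the 1 cerebellar marker tested, -0.48 for oligodendrocytes, -0.65 for dentate gyrus, -0.67 for thalamus and -0.81 for choroid plexus. After subtraction of group means over the 16 mice, the host was most like the cortex (r = 0.50) and oligodendrocyte (r = 0.45) scores, with 0.35 for neurons, 0.16 for dentate gyrus and -0.36 for microglia. Whether region or cell type content took part in the differences was not tested, and in whole tissue fewer cells of a type cannot be told apart from less RNA per cell.

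The host RNA was at 4.01 ± 1.53 CPM in adropin-treated mice and 7.97 ± 2.71 CPM in controls (SD, n = 8 each). Among the adropin-treated mice the lowest value was 2.58, the median 3.65 and the highest 7.05 CPM, and among the controls these were 4.57, 7.53 and 13.2 CPM. The groups overlapped, with 5 adropin-treated mice below the lowest control and 4 controls above the highest adropin-treated mouse. On the log2 scale the fitted difference for 1700016P03Rik, adropin minus saline, was -0.98 (standard error 0.23, edgeR), 1.98-fold higher in controls. These levels rest on 102 to 386 counts per mouse with adropin and 205 to 496 in controls.

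Mir212 was at 1.94 ± 1.16 CPM with adropin and 3.95 ± 0.806 CPM in controls (SD, n = 8 each). Its fitted log2 difference was -1.01 (standard error 0.25). Its lowest, median and highest values were 0.945, 1.57 and 4.64 CPM with adropin and 2.90, 3.71 and 5.31 CPM in controls. All but 1 of the adropin-treated mice, 7 of 8, lay below the lowest control, and the remaining mouse, 5_5, lay above 6 of the controls. The counts behind Mir212 ran from 40 to 254 with adropin and from 100 to 210 in controls.

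Mir132 was the lowest of the members, at 1.20 ± 0.434 CPM with adropin and 2.06 ± 0.625 CPM in controls (SD, n = 8 each). The adropin-treated mice ran from 0.496 through a median of 1.21 to 1.90 CPM, and the controls from 1.32 through 2.07 to 3.26 CPM. Here 6 adropin-treated mice were below all controls and 5 controls above all adropin-treated mice. For Mir132 the fitted log2 difference was -0.77 (standard error 0.23), from 21 to 104 counts with adropin and 58 to 123 in controls. Mouse 5_5 was the highest adropin-treated mouse for every member.

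All 3 members were lower with adropin by more than 1.5-fold at an unadjusted p below 0.05, which is how they were chosen. That was true of 46 of the 14949 genes tested, 0.308%, and nothing is read from the members' count against this share. No gene of the table reached an adjusted p below 0.05 in edgeR, the smallest being 0.387. In log2 CPM the pooled SD between mice of a group was 0.49, 0.51 and 0.50 for 1700016P03Rik, Mir212 and Mir132, against 0.10, 0.15 and 0.19 that counting alone would give, so mice differed by far more than counting error.

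**Figure D2:**
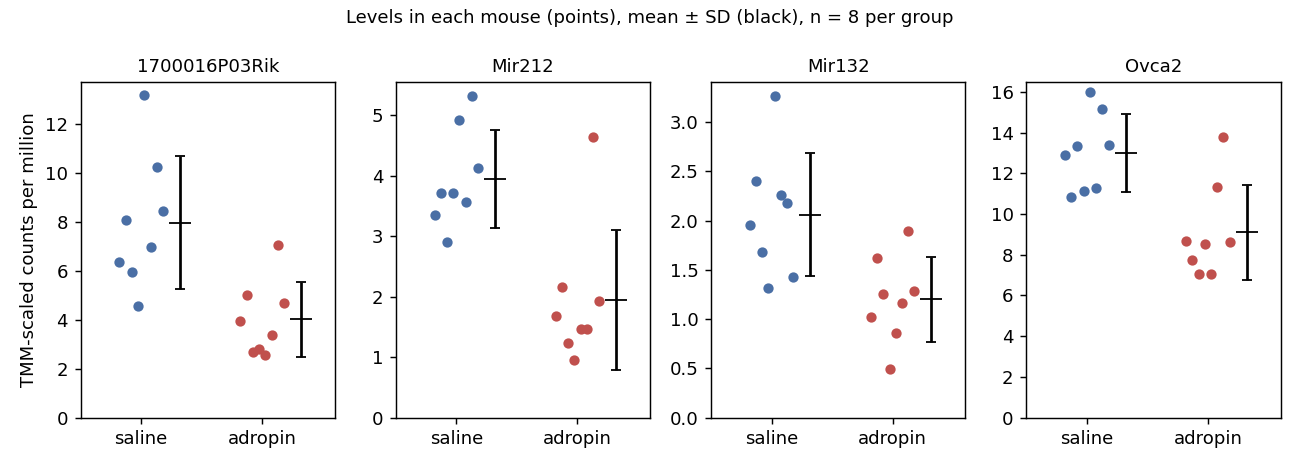
TMM-scaled CPM of 1700016P03Rik, Mir212, Mir132 and the overlapping gene Ovca2 in each mouse (points, control mice in blue and adropin-treated mice in red), with the mean and SD of 8 mice beside them and axes from 0. Adropin-treated mice lie mostly below the controls in all 4 plots, and 1 adropin-treated mouse, 5_5, lies highest of its group in each.

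Mice were labelled with a pair of numbers whose meaning the labels do not give, and the first of these was not spread evenly over the groups. Only 3 of the 8 first numbers occur in both groups, and they cover 8 mice. Among these, 1700016P03Rik was at 4.86 ± 1.78 CPM in the 4 adropin-treated and 6.84 ± 0.937 CPM in the 4 control mice (SD). Among the other mice it was at 3.17 ± 0.614 and 9.10 ± 3.59 CPM (SD, n = 4 each). The log2 ratio of these means was -0.49 where numbers are shared and -1.52 where they are not. Mir212 gave -0.44 and -1.70, and Mir132 -0.45 and -1.21. Within the shared numbers 2 and 7 the host RNA was lower with adropin, at 3.84 against 6.36 CPM and 4.70 against 6.98 CPM, while within number 5 it was 7.05 in the adropin-treated mouse 5_5 and averaged 7.01 CPM in its 2 controls. Within number 5 Mir212 was higher with adropin, at 4.64 against 3.31 CPM, and Mir132 was at 1.90 against 2.04 CPM. With the first number as a replicate block the log2 fold changes were -0.41 for 1700016P03Rik and -0.38 for Mir212. Where a number occurs in 1 group, it and the treatment cannot be told apart.

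Mice kept a steady order of the 3 genes. The host was above Mir212 in 16 of 16 mice and Mir212 above Mir132 in 15 of 16. Part of this follows from length, and per 1000 positions at which an unspliced read could start and touch the gene's own bases the levels were closer. On this scale controls had 15.3 ± 5.22 CPM for 1700016P03Rik, 16.4 ± 3.36 for Mir212 and 9.58 ± 2.90 for Mir132, and adropin-treated mice had 7.72 ± 2.94, 8.07 ± 4.81 and 5.58 ± 2.02 (SD, n = 8 each). The host exons and the Mir212 stretch of its intron were thus covered at levels within 1 SD of each other in both groups. Hairpin counts, summed over both genes, were 0.772 ± 0.144 of the host count with adropin and 0.788 ± 0.147 in controls, ranges of 0.517 to 0.927 and 0.621 to 1.10. The intronic hairpin reads and the host exon reads were lower together, and their ratio overlapped almost fully between groups.

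Whether the members vary together was tested between mice of the same group, which the choice of members did not use. In the adropin-treated mice 1700016P03Rik and Mir212 were correlated (Pearson's r = 0.917, two-sided exact permutation p = 0.000819, adjusted p = 0.0115 over 14 relations, n = 8). Spearman's rho was 0.833 (exact p = 0.0154, adjusted p = 0.0718), and r was 0.942 once the 2 mice with host levels farthest from the median were left out. Without mouse 2_1 the adjusted p was 0.0611 and without mouse 5_5 it was 0.102, with r of 0.921 and 0.846. In the controls r was 0.773 (exact p = 0.0247, adjusted p = 0.0648, rho 0.833 with exact p = 0.0154 and adjusted p = 0.0718, n = 8), and 0.969 without the 2 farthest mice. Leaving out each control in turn gave r from 0.694 without 6_2 (adjusted exact permutation p = 0.197) to 0.918 without 6_1 (0.0236). Mouse 6_1 had the highest ratio of hairpin to host counts, so this higher r leaves out an outlying mouse. Leaving out 6_1 lowered r of the host with Mir132 in controls, from 0.760 to 0.635. Mates of 1 fragment that fall in 2 of the genes would add to such a relation, and their share was not tested.

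The relations with Mir132, which had the fewest counts, did not pass the correction. Host and Mir132 gave r = 0.750 in adropin-treated mice and 0.760 in controls (exact p = 0.0285 and 0.0292, adjusted p = 0.0648 for both), with rho of 0.786 and 0.643 (exact p = 0.0279 and 0.0962, adjusted p = 0.0782 and 0.168). With the 2 farthest mice left out these came to 0.612 and 0.184 over 6 mice each, so in the controls the relation rests on those mice. Mir212 and Mir132 gave 0.814 with adropin (exact p = 0.0224, adjusted p = 0.0648) and 0.430 in controls (exact p = 0.288, adjusted p = 0.367), with rho of 0.786 and 0.333 (exact p = 0.0279 and 0.428, adjusted p = 0.0782 and 0.499). With the 2 farthest mice left out r was 0.537 and -0.171.

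**Figure D3:**
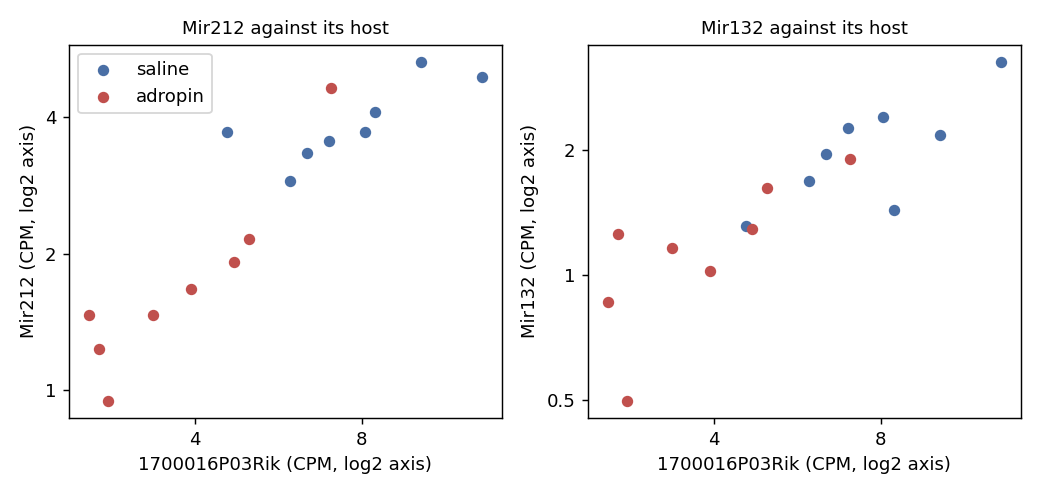
Mir212 (left) and Mir132 (right) against 1700016P03Rik in each of 16 mice, both axes in TMM-scaled CPM on a log2 scale, control mice in blue and adropin-treated mice in red. Mir212 follows the host within the adropin-treated mice (r = 0.917, n = 8). For Mir212 in controls (r = 0.773) and for Mir132 in both groups (r of 0.750 and 0.760) the relation did not pass the correction.

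Neighbouring genes place these differences along the chromosome. Of 11 other listed genes within 200 kb of 1700016P03Rik, 8 were tested, with log2 fold changes from -0.51 to 0.12 and a median of 0.02. The lowest value was that of Ovca2, at 9.10 ± 2.34 CPM with adropin and 13.0 ± 1.90 CPM in controls (SD, n = 8 each; log2 fold change -0.51, standard error 0.13, edgeR adjusted p = 0.874). It was the only one of the 8 with an unadjusted p below 0.05, where 2.13% of all genes tested were lower at that level. With the first label number as a replicate block its log2 fold change was -0.32 and its unadjusted p was no longer below 0.05. The Ovca2 values ran from 7.04 to 13.8 CPM with adropin and from 10.8 CPM upward in controls, with 6 adropin-treated mice below all controls. Dph1, whose 3′ end lies 10 bases past the end of the host on the opposite strand, had a log2 fold change of 0.08, and Hic1, a transcriptional repressor gene 3041 bases upstream, -0.01. Smg6, Rtn4rl1, Rpa1, Smyd4 and the pseudogene Gm12335, which lie farther away, ran from -0.002 to 0.12.

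Ovca2 also followed the locus between mice. After subtraction of each group's mean, log2 CPM of Ovca2 and 1700016P03Rik gave r = 0.661 over 16 mice, Ovca2 and Mir212 gave 0.631, and Ovca2 and Mir132 0.381, where the host with Hic1 gave 0.00 and with Dph1 0.09. Per 1000 read start positions of the bases that are Ovca2's own, its level was 10.8 ± 1.57 CPM in controls and 7.52 ± 1.93 CPM with adropin (SD, n = 8 each), of the same order as the members. These are descriptions, and how much of the Ovca2 count stems from the host's second intron was not tested.

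By the same measure, 10 genes were most like 1700016P03Rik among the other 14948 genes. They were Gpd1, which encodes a glycerol-3-phosphate dehydrogenase (r = 0.878), Ppp1r37 (0.831), Phf21a (0.828), B4galnt3 (0.827), Ccdc9 (0.826), Otud5 (0.826), Mir212 (0.823), Teddm2 (0.799), Trpm4 (0.798) and Plec (0.792). Mir132 stood at place 21 with 0.749. The 5 most like Mir212 were 1700016P03Rik itself, Gpd1 (0.797), Zfp641 (0.781), Bicdl1 (0.775) and Npas4, a transcription factor induced by neuronal activity (0.769). For scale, r with the host over all genes had a median of 0.01 and ran from -0.853 to 0.878. The genes named here are the top of their range by selection.

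Genes induced by neuronal activity, many of them CREB targets as the locus itself is, were compared with it as a list of 31 genes, all tested. In the adropin comparison 18 of these were lower at an unadjusted p below 0.05 (edgeR) and the other 13 did not pass, against 2.13% lower and 1.86% higher among all genes tested, and their median log2 fold change was -0.40 where that of all genes was -0.002. The list was chosen with these results known. The transcription factors Egr2 (-1.19), Fos (-0.997), Nr4a1 (-0.65), Junb (-0.64), Egr4 (-0.55), Fosb (-0.53), Nr4a3 (-0.46), Nfil3 (-0.40) and Fosl2 (-0.35) were among the lower genes. So were the synaptic regulator Arc (-0.74), the phosphatase gene Dusp1 (-0.60), the kinase gene Sik1 (-0.59), Btg2 (-0.67), Ier2 (-0.57), Gadd45b (-0.53), the clock gene Per1 (-0.26), the neurotrophin Bdnf (-0.15) and the neuropeptide precursor Vgf (-0.13). All had an adjusted p of 0.387 or more (edgeR). Members of the list with high levels that did not pass include Egr1 at -0.40 and the somatostatin gene Sst at -0.09. Of the 31 genes 27 lay below 0, where 7587 of all 14949 genes tested did. Those above 0 were Pcsk1 (0.24), Homer1 (0.10), Egr3 (0.09) and Ppargc1a (0.09), none of which passed. The locus, at -0.77 to -1.01, lay in the lower part of the range of the 31 genes. With the first label number as a replicate block, 2 of the 31 were lower.

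Within groups, relations of 1700016P03Rik and Mir212 with these genes did not pass the correction, and Mir132 was not set against them. An activity score, in which the z scores of the 31 genes are averaged, gave r = 0.749 with 1700016P03Rik in adropin-treated mice and 0.658 in controls (exact p = 0.0324 and 0.0706, adjusted p = 0.0648 and 0.124, n = 8 each), with rho of 0.714 and 0.738 (exact p = 0.0576 and 0.0458, adjusted p = 0.115 and 0.107). With Mir212 it gave 0.816 and 0.596 (exact p = 0.00848 and 0.117, adjusted p = 0.0594 and 0.182), with rho of 0.905 and 0.524 (exact p = 0.00456 and 0.197, adjusted p = 0.0639 and 0.306). Without the 2 farthest mice r was 0.537 and 0.406 for the host and 0.418 and 0.620 for Mir212. For single genes, group-centred r with the host ran from -0.61 for Rgs2 to 0.74 for Nr4a1, above 0 for 26 of 31, with a median of 0.48. The next highest were Junb (0.72), Fos (0.72) and Arc (0.70). Total count gave r of 0.449 and -0.340 with the host (exact p = 0.268 and 0.407, adjusted p = 0.367 and 0.475), and a dentate gyrus score 0.278 and 0.084 (exact p = 0.505 and 0.836, adjusted p = 0.543 and 0.836).

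The genes that carry the signal to CREB were described apart from its targets. Of 17 such genes, all tested, 2 were higher at an unadjusted p below 0.05 (edgeR), where 1.86% of all genes were, and the other 15 did not pass, with a median log2 fold change of 0.09. The higher genes were the calcium-dependent kinase gene Camk4, at 245 ± 31.2 against 210.0 ± 27.4 CPM (log2 fold change 0.22, adjusted p = 0.874), and the coactivator gene Crebbp, at 117 ± 11.01 against 106 ± 6.85 CPM (0.14, adjusted p = 0.874; SD, n = 8 each). Creb1 itself was at 39.8 ± 4.12 and 37.8 ± 1.89 CPM (0.07, edgeR adjusted p = 0.874). Without the adropin-treated mouse 1_3, or with either label number as a replicate block, 0 genes were higher. Among the most abundant genes of the list, the neurotrophin receptor gene Ntrk2 and the protein kinase A gene Prkacb had log2 fold changes of 0.21 and 0.09 with edgeR adjusted p of 0.874 or more.

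Genes that cut, export and load microRNAs bear on what could become of the hairpins. The 13 tested had unadjusted edgeR p-values above 0.05, the exportin gene Xpo5 having the lowest, and the median log2 fold change was 0.01. Drosha was at 0.07, Dicer1 at 0.04 and Ago2 at 0.11. The most abundant members Ddx5 and Ddx17, helicases of the nuclear step, were at -0.02 and 0.00. Among the other tested genes named for a microRNA, the log2 fold changes ran from -0.33 for Mir3074-1, in an intron of Fancc, to 0.60 for Mir6236, the latter with the smallest p of these (edgeR adjusted p = 0.874). Mir5125, in an intron of Srrm2, was at -0.10, Mir3098, in an exon of Mrpl51, at 0.14, and the host genes Mir124a-1hg, Mir124-2hg, Mir9-3hg, Mir22hg, Mir99ahg and Mir670hg between -0.20 and 0.03. In all, 1929 microRNA genes were listed, 872 had a count and 17 were tested. These 17 include genes not named as Mir with a number, whose values are outside the range given above.

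**Figure D4:**
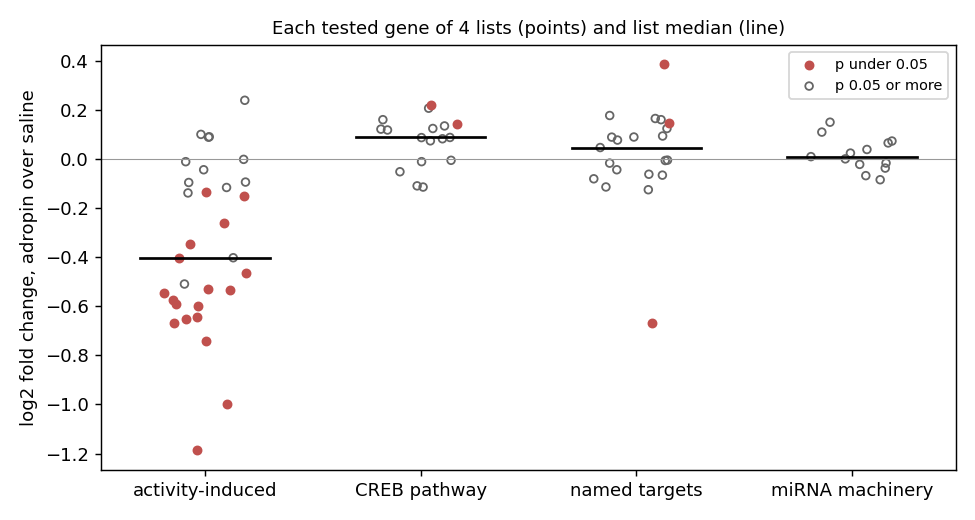
Log2 fold change, adropin over saline, of each tested gene (points) in 4 lists of 31 activity-induced, 17 CREB pathway, 21 named target and 13 microRNA processing genes, with list medians as lines and genes with an unadjusted edgeR p below 0.05 filled in red. Of the activity-induced genes 18 are filled below 0, while the other medians lie between 0.01 and 0.09.

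Messenger RNAs with a match to the shared seed of the 3p arms were then examined, since the mature arms lower such targets. A match was searched on the transcript strand of the annotated 3′UTR as GACTGTT, which pairs with the seed, or as GACTGTTA, which pairs with the seed and the base before it and contains the shorter match. Of 13496 tested genes with a 3′UTR, 1764 (13.1%) held the 7-base and 376 (2.79%) the 8-base match. Of 21 genes named in the literature as targets of miR-132 or miR-212, 19 held the 7-base match and 8 the 8-base match. The site of Arhgap32, a target that passed an unadjusted p below 0.05, is shown with the match in capitals, on the strand of the gene on GRCm38.
Arhgap32, chr9:32261181-32261209, plus strand: gctggacagtgGACTGTTctatttttttt

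Arhgap32, which encodes a GTPase-activating protein that limits dendritic spines and is the best known neuronal target, was at 481 ± 98.4 CPM with adropin and 367 ± 71.7 CPM in controls (SD, n = 8 each; log2 fold change 0.39, edgeR adjusted p = 0.874). Btg2, an antiproliferative gene that is also in the list of activity-induced genes, was at 20.7 ± 9.89 and 33.0 ± 9.46 CPM (-0.67, edgeR adjusted p = 0.874). Of the 21 in all, 2 were higher and 1 was lower at an unadjusted p below 0.05 (1 higher and 0 lower under a replicate block of the first label number), against 1.86% and 2.13% of all genes, with a median log2 fold change of 0.05. The abundant tau gene Mapt, with a match, was at -0.004 (edgeR adjusted p = 0.995). Others were Foxo3 at 0.18, Ep300 at 0.16, Sirt1 at -0.12 and the acetylcholinesterase gene Ache at -0.11, and each of these 4 had an edgeR adjusted p of 0.874 or more.

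Across all genes with the 8-base match the median log2 fold change was 0.03, and 229 of 376 (60.9%) were above 0. At an unadjusted p below 0.05, 13 of them (3.46%) were higher and 4 (1.06%) lower. The median over all tested genes with a 3′UTR was 0.00, with 50.6% above 0, and 246 (1.82%) higher and 269 (1.99%) lower. Genes with a match have long 3′UTRs, a median of 2444.5 bases against 1223 bases over all of them, so they were set beside long ones without a match. Among genes whose 3′UTR was at least as long as the latter, the 301 with the 8-base match had a median of 0.04 and 63.1% above 0, and the 5313 without a 7-base match 0.03 and 62.02%. At an unadjusted p below 0.05, 13 (4.32%) of the former were higher and 2 (0.664%) lower, and 131 (2.47%) and 83 (1.56%) of the latter. Their median 3′UTRs were 3303 and 2240 bases, so the long sets still differed in length and were not matched for it. The median of the 567 genes with the 8-base match of miR-212-5p was 0.02, and that of the 55 with the match of miR-132-5p was 0.04. Taken mouse by mouse against the control mean of each gene, the median of long 3′UTRs with the match minus that of long ones without it was 0.0095 ± 0.018 with adropin and 0.00077 ± 0.016 in controls (log2 scale, SD, n = 8 each), and the groups overlapped.

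**Figure D5:**
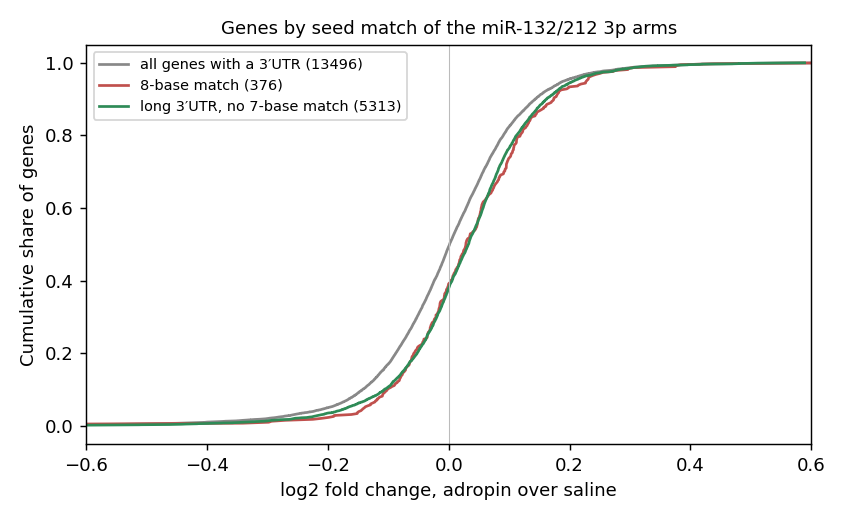
Cumulative share of genes by log2 fold change, adropin over saline, for all 13496 tested genes with a 3′UTR (grey), the 376 with the 8-base match of the miR-132 and miR-212 3p arms (red) and 5313 genes with a long 3′UTR but no 7-base match (green). The red and green curves run close together, both slightly right of the grey curve, with medians of 0.03, 0.03 and 0.00.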

How the data were processed

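RNA from 16 brains was sequenced as paired 150-base reads after poly-A selection. The authors aligned reads with STAR 2.5.1a1 to the Ensembl mouse assembly (GRCm38). The deposited counts are unique, unambiguous reads that featureCounts 1.4.6-p52 gave each gene, and the deposited CPM came to 0.99891 to 0.99904 of the counts scaled to each library's total. Of 40757 entries, 276 repeats were dropped. A gene needed more than 1 CPM in 7 mice, and 355 ribosomal RNA genes were left out. TMM scaling and quasi-likelihood tests across the 14949 genes used edgeR 4.0.16 in R 4.3.3, with no covariate. Correlations used log2 CPM (prior count 2) and exact permutation (scipy 1.17.1), with Benjamini-Hochberg adjustment. Each mouse was 1 replicate, and counts of mice of a group differed by more than counting error (chi-square over its degrees of freedom 8.52 to 190.0 in 56 pairs). Nothing in the labels says more on how mice were housed or processed, so p-values measure the spread between these samples. The permutation and edgeR steps were tested on simulated data.

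The members, lists and tests were chosen with earlier results of these data known. Genes were named by rule, as the members, those most like 1700016P03Rik or Mir212, those within 200 kb, tested genes named for a microRNA, and list genes with an unadjusted p below 0.05 or the highest levels. Other list genes and the order of presentation were chosen after their values were seen. Coordinates, exons and 3′UTRs came from GENCODE M21 on GRCm38, and all 14949 genes were found in it. Hairpin and mature sequences came from RefSeq (GRCm38.p6). Alternatives were limma-voom and limma on deposited CPM plus 1 (limma 3.58.1), DESeq2 1.42.0, no filter, library size only, label numbers as blocks, and leaving out each mouse. Depth limits precision mainly for Mir132 and Mir212. Some results of single list genes are not reported here.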

Additional observations from a re-analysis of the deposited data

Results flagged for a closer look

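Of 58 groups of 8 mice examined for a single value far from the others, 4 stood out, where about 1 in 20 do so by chance. Mir212 in the adropin-treated mouse 5_5 was at 4.639 CPM, with the next mouse of its group at 2.161 CPM. In the same mouse 2 activity-induced genes were also far above the rest of the adropin group, Fosb at 29.95 CPM with the next at 22.01 and Egr4 at 54.4 CPM with the next at 40.3. The count of both hairpins over that of 1700016P03Rik was 1.099 in the control mouse 6_1, with the next control at 0.834.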

How the results depend on the processing

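The log2 fold changes of 1700016P03Rik, Mir212 and Mir132 kept their sign in every fit made. Leaving out each mouse gave -1.14 to -0.85 for 1700016P03Rik, -1.33 to -0.90 for Mir212 and -0.89 to -0.65 for Mir132. With the first label number as a replicate block they were -0.41, -0.38 and -0.41. That fit compares groups only among the 8 mice with shared numbers, and deviations of mice of opposite groups that share a number correlated at -0.272 to 0.217 for the first (2 of 5 pairs above 0.1) and -0.561 to 0.299 for the second number (7 of 17). Mice of 1 group that share a number were not compared. The first-number block also left 2 of the 31 activity-induced genes lower, against 18, and leaving out mice left 14 to 18. Of all genes, 46 were reduced and 17 increased past the 1.5-fold cut-off. These were 30 reduced with limma-voom, 784 reduced and 569 increased with no filter, 34 increased with the first and 11 with the second number as a replicate block, and 34 to 62 reduced and 10 to 48 increased when a mouse was left out. For 1700016P03Rik with Mir212 in controls, linear CPM gave r = 0.812 (adjusted exact permutation p = 0.0407), and leaving out each mouse gave r of 0.694 to 0.918, and 0.846 to 0.961 in adropin-treated mice. The median of genes with the 8-base match was 0.02 to 0.05 when mice were left out and 0.0058 with library size only. Linear CPM also took host with Mir132 in both groups, and Mir212 with Mir132, host with the activity score and Mir212 with the activity score in adropin-treated mice, past the adjusted threshold (exact permutation, adjusted p 0.0266 to 0.0481). So did leaving out mouse 2_4, 8_3 or 1_3 for 1 or more of these (0.0292 to 0.0465). Of the named targets, 1 to 2 were lower and 2 to 4 higher when a mouse was left out (4 without 4_3). With the first and second number as a replicate block, 0 and 2 were lower and 1 was higher in each. Of the CREB pathway genes 0 to 3 were higher without 1 mouse. Causes were not tested. Counts of 21 to 254 for the hairpins limit what their ratios can show.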
